A study of Mus musculus with 4 samples.

Results

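The mitochondrial ribosomal protein genes are the nuclear genes, with symbols that start with Mrpl (large subunit) or Mrps (small subunit), that encode the proteins of the ribosome inside mitochondria. They were chosen by symbol alone, as every probe set whose only gene symbol on the platform annotation starts with Mrpl or Mrps followed by a digit. This gave 156 of 45101 probe sets and 76 of 18194 genes, 47 with Mrpl and 29 with Mrps symbols. All 76 were among the 12098 genes compared, those whose highest value over the arrays reached 6.05 on the log2 scale, the median of all values. The probe set that read highest on average stood for its gene, and 42 of the 76 had more than 1 probe set. Mrpl30 and Mrpl53 were represented only by probe sets that carry several symbols and were not analysed here.

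The arrays measured total RNA of CM7/1 cells, a line of murine embryonic stem cells, described as overexpressing Hey1 or Hey2. Both factors are transcriptional repressors of the basic helix-loop-helix class and targets of Notch signalling. The 4 groups were the Hey1 line after 1000 ng/ml doxycycline for 48 h, the Hey1 line uninduced, the Hey2 line after the same doxycycline treatment, and the Hey2 line uninduced, with 1 array in each and no replicates. The labels do not say whether a line is a single clone or which promoter drives the factor. No array of doxycycline-treated cells without a Hey construct was analysed here, so the antibiotic and the induced factor cannot be told apart in any doxycycline difference.

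The mitochondrial ribosome translates the few messages of mitochondrial DNA, all of which encode subunits of the respiratory chain or of ATP synthase. Its proteins are encoded in the nucleus, made in the cytosol and imported, and they assemble on ribosomal RNA transcribed from mitochondrial DNA. Some have counterparts in the bacterial ribosome and others are specific to mitochondria. Doxycycline belongs to the tetracyclines, which bind the small subunit of bacterial ribosomes and also act on mitochondrial translation.

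The probe sets of the 2 induced factors gave no check of the induction labels. The Hey1 probe set read 6.51 in the Hey1 line on doxycycline and 6.73 in the same line uninduced. The Hey2 probe set read 4.34 in the Hey2 line on doxycycline and 4.25 in that line uninduced, both under the level filter. Each doxycycline difference given here is therefore the array labelled as treated minus the array labelled as uninduced. Embryonic stem cell markers were high: 10 of 10 reached the filter, with medians from 12.82 to 13.16 over the arrays. Of 8 fibroblast markers 2 reached it, and their median stayed between 5.03 and 5.25. The filter was also reached by 3 of 6 cardiomyocyte, 1 of 6 endoderm and 4 of 5 neuroectoderm markers, whose medians lay between 5.25 and 6.73.

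The mitochondrial ribosomal protein genes were read high and even in all 4 arrays. Their median was 11.16 in the Hey1 line on doxycycline and 11.21 in the Hey1 line uninduced. It was 11.08 in the Hey2 line on doxycycline and 11.11 in the Hey2 line uninduced. The spread of a member over the 4 arrays, its highest minus its lowest value, had a median of 0.21, against 0.34 over all genes compared. Mrpl39 had the smallest spread, 0.05, and Mrpl36 the largest, 0.61. In RNA from a whole culture, fewer cells of a type and less RNA per cell cannot be told apart. The arrays were quantile-normalised to a single distribution, so a shift of all genes together cannot be seen.

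Promoter windows, 250 bases before to 50 after the start site, were taken from RefSeq (GRCm38.p6) and matched to 67 of 76 members, 73 windows in all. They were searched on both strands for the NRF1 motif GCGCANGCG, the ETS motif CCGGAAGT, the YY1 motif AAGATGGCG and the SP1 motif GGGGCGGGG. The NRF1 and YY1 motifs were first searched in longer forms and then shortened, which raised their shares in the members' windows and the background alike. Mrpl36 gained its YY1 match by this shortening. NRF1, ETS-family factors and YY1 are known regulators of nuclear genes for mitochondrial proteins, and SP1 is a general factor of GC-rich promoters. The NRF1 motif was in 20.5% of the members' windows, against 12.8% of the 12430 windows of compared genes and 6.25% of all 32851 windows. The ETS motif was in 16.4%, against 7.74% and 3.89%, and the YY1 motif in 11%, against 2.89% and 1.4%. The SP1 motif was in 20.5%, against 21.2% and 11.4%. In the members' windows 0 matches of different motifs overlapped. A match describes the letters and not a factor's binding.

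The 250 bases upstream of the start site are shown for 5 members whose levels the comparisons turn on and for Mrps11 and Mrpl46, whose windows overlap. They are written 5′ to 3′ on the gene's strand, with motif matches in capitals, from RefSeq on GRCm38.p6. The windows are chr8:71464676-71464925 (plus strand) for Mrpl34, chr13:73330759-73331008 (plus) for Mrpl36, chr16:92058086-92058335 (plus) for Mrps6, chr3:94443086-94443335 (plus) for Mrpl9 and chr3:95871515-95871764 (minus) for Mrps21. They are chr7:78782881-78783130 (plus) for Mrps11 and chr7:78783090-78783339 (minus) for Mrpl46. The capitals are the SP1 motif in Mrps6, the NRF1 motif in Mrpl9, where matches on both strands overlap, and in Mrps21, where it reads on the opposite strand, and the YY1 motif, also on the opposite strand, in Mrpl36 and Mrps11. The windows of Mrpl34 and Mrpl46 hold none of these letters.
Mrpl34: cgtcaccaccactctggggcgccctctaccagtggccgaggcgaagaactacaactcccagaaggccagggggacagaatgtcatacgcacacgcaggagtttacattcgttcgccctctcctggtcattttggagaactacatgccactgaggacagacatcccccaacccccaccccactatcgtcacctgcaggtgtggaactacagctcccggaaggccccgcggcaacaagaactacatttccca
Mrpl36: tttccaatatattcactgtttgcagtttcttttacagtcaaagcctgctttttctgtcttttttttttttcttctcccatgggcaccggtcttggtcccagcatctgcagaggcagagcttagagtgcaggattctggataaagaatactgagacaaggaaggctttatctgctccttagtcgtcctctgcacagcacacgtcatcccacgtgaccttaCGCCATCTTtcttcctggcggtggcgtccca
Mrps6: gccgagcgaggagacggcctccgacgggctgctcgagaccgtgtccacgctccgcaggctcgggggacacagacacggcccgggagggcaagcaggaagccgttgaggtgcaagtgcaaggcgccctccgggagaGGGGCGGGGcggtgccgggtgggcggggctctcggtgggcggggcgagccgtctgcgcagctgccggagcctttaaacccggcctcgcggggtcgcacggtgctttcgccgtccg
Mrpl9: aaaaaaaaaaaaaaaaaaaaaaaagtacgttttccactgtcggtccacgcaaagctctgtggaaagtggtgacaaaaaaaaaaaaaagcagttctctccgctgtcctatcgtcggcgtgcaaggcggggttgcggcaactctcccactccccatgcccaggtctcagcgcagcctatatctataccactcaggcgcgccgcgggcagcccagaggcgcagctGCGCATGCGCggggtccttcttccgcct
Mrps21: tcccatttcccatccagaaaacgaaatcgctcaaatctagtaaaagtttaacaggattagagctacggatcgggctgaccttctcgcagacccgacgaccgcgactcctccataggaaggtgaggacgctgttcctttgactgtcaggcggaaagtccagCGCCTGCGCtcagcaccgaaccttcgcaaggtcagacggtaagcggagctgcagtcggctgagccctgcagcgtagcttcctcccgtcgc
Mrps11: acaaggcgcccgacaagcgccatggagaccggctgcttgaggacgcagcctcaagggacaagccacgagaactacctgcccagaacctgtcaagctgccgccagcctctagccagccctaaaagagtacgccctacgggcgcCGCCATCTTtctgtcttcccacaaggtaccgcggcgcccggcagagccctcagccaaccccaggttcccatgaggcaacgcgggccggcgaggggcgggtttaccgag
Mrpl46: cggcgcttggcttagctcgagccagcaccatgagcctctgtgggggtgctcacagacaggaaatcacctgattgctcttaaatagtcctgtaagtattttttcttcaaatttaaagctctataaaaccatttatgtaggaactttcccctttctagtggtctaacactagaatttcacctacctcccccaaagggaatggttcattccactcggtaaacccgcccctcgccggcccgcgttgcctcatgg

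**Figure D1:**
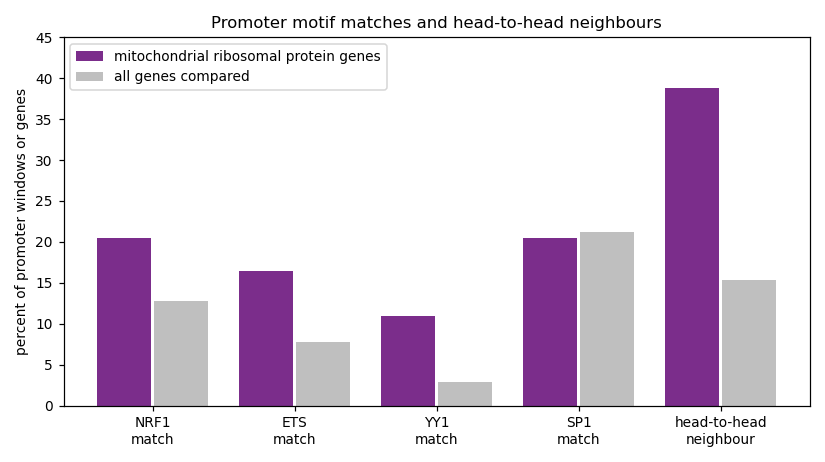
Percent of promoter windows that hold each motif and, at the right, percent of genes with a protein-coding neighbour that starts head to head within 1000 bases, for the mitochondrial ribosomal protein genes (purple) and all genes compared (grey). The members' bars exceed the grey bars for NRF1, ETS, YY1 and the neighbour, and not for SP1.

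Doxycycline differences of the members were small in both lines and lay slightly below 0 on the whole. In the Hey1 line the median difference, doxycycline minus uninduced, was -0.04, with a range from -0.33 to 0.36, and 50 of 76 members (65.8%) lay below 0. In the Hey2 line the median was -0.05, with a range from -0.36 to 0.25, and 53 members lay below 0. Over all genes compared the medians were -0.01 and -0.02 in the same lines, and 53.1% and 54.3% of genes lay below 0. Among the 4234 genes within the members' level range, 56.8% and 51.4% lay below 0. The members' medians were thus a few hundredths of a log2 unit under those of all genes. The scaled median absolute deviation of the members was 0.08 (Hey1 line) and 0.11 (Hey2 line). With 1 array per group these differences have no replicate check. The 3′ minus 5′ gap of control probe sets, which tracks how intact the RNA is, moved with treatment in the Hey2 line for all 4 controls. On doxycycline and uninduced it was 0.03 and 0.01 for Gapdh, 0.42 and 0.39 for Actb, 0.96 and 0.67 for Tfrc, and 1.56 and 1.33 for Pcx. For the Hey1 line the same pairs were 0.04 and 0.04 for Gapdh, 0.51 and 0.48 for Actb, 0.84 and 0.95 for Tfrc, and 1.43 and 1.38 for Pcx. The part of RNA quality in the doxycycline differences was not tested.

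Few members reached a difference of 0.32 on the log2 scale, the size used here to count single genes. In the Hey1 line 2 of 76 did, against 10.2% of all genes compared and 4.53% of genes in the members' level range. Of these Mrpl9 was higher, where 6.16% of all genes were, and Mrpl34 lower, where 3.99% were. In the Hey2 line 2 did, against 21.3% of all genes and 8.9% of genes in that level range. Both, Mrpl34 and Mrps21, were lower, as were 11.7% of all genes, and 0 members were higher, against 9.54%. None of the 76 reached 2-fold in either line, where 0.471% of all genes did (Hey1 line) and 0.926% (Hey2 line). The 2 lines share no array, and 57 members (75%) had the same sign in both, 42 below 0 and 15 above. Of all genes, 63.6% kept their sign between the lines, 35.5% below 0 and 28.1% above. In the members' level range 66.3% did, 37.3% below 0 and 29% above. Over the 76 genes, which are not independent replicates, the 2 doxycycline differences had a Pearson correlation of 0.51, against 0.41 over all genes and 0.55 in the members' level range.

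**Figure D2:**
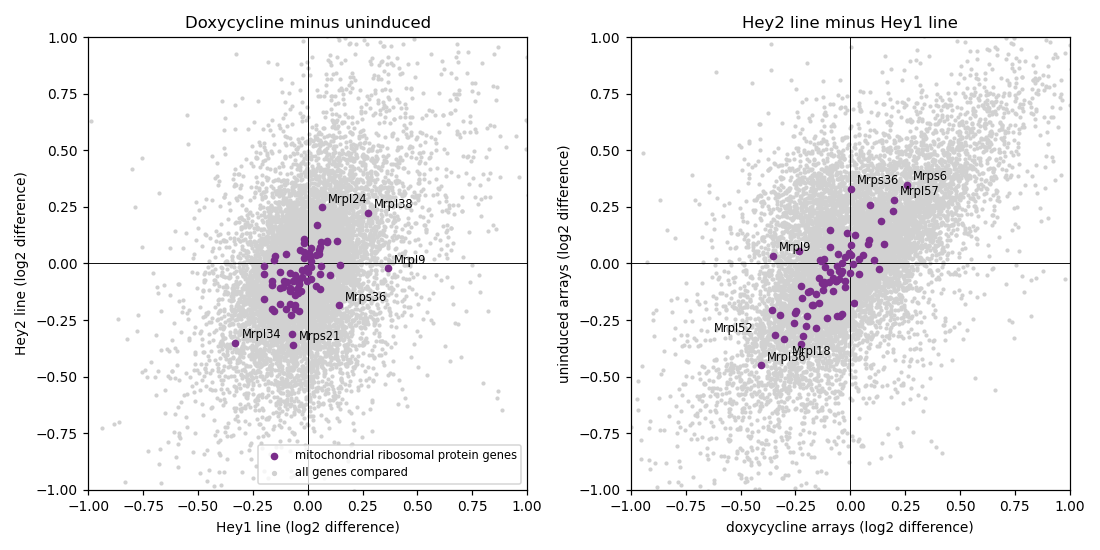
Each point is a gene: purple points are the 76 mitochondrial ribosomal protein genes and grey points all genes compared, with every axis in log2 difference. The left panel sets the Hey2 line's difference, doxycycline minus uninduced, against that of the Hey1 line, and the right panel sets the Hey2 minus Hey1 difference of the uninduced arrays against that of the doxycycline arrays. The axes end at 1 in each direction, which leaves out 152 genes on the left and 315 on the right, none of them a member. Members lie near the centre of both panels, with Mrpl34 low in both lines and Mrpl9 apart from the rest in the Hey1 line.

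A linear model with line and doxycycline as terms, fitted with limma over all 4 arrays and 12098 genes, gives the doxycycline effect common to the lines on 1 residual degree of freedom per gene. At an adjusted p of 0.05 it called 0 genes (0%), and 0 members, whose lowest adjusted p was 0.301. At an unadjusted p of 0.05 it called 2 of 76 members, against 13.2% of all genes. There was 1 in each direction, against 6.9% of all genes higher and 6.31% lower. The fit treats the lines as repeats of a single treatment, though they are described as overexpressing different factors. A doxycycline difference that is not the same in both lines therefore counts as error. limma also draws each gene's error toward a value common to all genes, with a prior of 2.92 degrees of freedom. The labels do not state that the RNA came from separate cultures, and the p-values then reflect no more than the spread among these 4 arrays, which may be technical. No member is therefore described as changed by doxycycline.

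Mrpl34 had the lowest unadjusted p. It encodes bL34m, a small protein of the large subunit with a bacterial counterpart. It read 11.31 in the Hey1 line on doxycycline and 11.64 in the Hey1 line uninduced. It read 11.16 in the Hey2 line on doxycycline and 11.51 in the Hey2 line uninduced. Both doxycycline arrays lay below both uninduced arrays, with differences of -0.33 and -0.35. The common effect was -0.34 ± 0.08 (SE), with an unadjusted p of 0.0138 and an adjusted p of 0.301 in limma, 0.0106 to 0.402 under the alternatives, the lowest with limma's trended, robust prior. A second Mrpl34 probe set, at a mean level of 6.66, gave 0.10 (Hey1 line) and -0.69 (Hey2 line).

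Mrpl38 was the only other member past an unadjusted p of 0.05. It encodes mL38, a mitochondria-specific protein of the large subunit's central protuberance. It read 9.90 in the Hey1 line on doxycycline and 9.63 uninduced, and 10.04 in the Hey2 line on doxycycline and 9.82 uninduced. Both doxycycline arrays were above both uninduced arrays, with differences of 0.27 and 0.22. The common effect was 0.25 ± 0.08 (SE), with an unadjusted p of 0.0379 and an adjusted p of 0.347 in limma, from 0.0995 to 0.939 under the alternatives. Its other 2 probe sets did not follow it, with differences of -0.06 and -0.00 for the first and -0.03 and -0.30 for the second (Hey1 line, then Hey2 line).

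Over the members as a whole, both doxycycline arrays lay below both uninduced arrays for 21 of 76 (27.6%), against 18.3% of all genes compared and 15.2% of genes in the members' level range. The opposite order held for 5 (6.58%), against 12.6% of all genes and 11.7% in that level range. These 5 were Mrpl24, Mrpl38, Mrpl39, Mrpl58 and Mrps27.

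Several further members were lower on doxycycline in both lines. Mrpl23, which encodes uL23m of the tunnel exit, read 10.91 in the Hey1 line on doxycycline and 11.07 uninduced, and 10.78 in the Hey2 line on doxycycline and 10.99 uninduced. Mrpl36, which encodes bL36m, among the smallest proteins of the large subunit, read 10.61 in the Hey1 line on doxycycline and 10.81 uninduced, and 10.20 in the Hey2 line on doxycycline and 10.36 uninduced. Mrpl50, specific to mitochondria, read 10.82 in the Hey1 line on doxycycline and 10.97 uninduced, and 10.72 in the Hey2 line on doxycycline and 10.93 uninduced. For Mrpl23 and Mrpl50 both doxycycline arrays lay below both uninduced arrays, whereas for Mrpl36 the Hey1-line doxycycline array lay above both Hey2-line arrays. A second Mrpl50 probe set gave 0.02 (Hey1 line) and 0.08 (Hey2 line). Mrpl2, whose uL2m protein lies near the peptidyl transferase centre, differed by -0.13 in the Hey1 line and by -0.18 in the Hey2 line. Mrpl11, of the base that binds elongation factors, differed by -0.11 and -0.10, and Mrpl20 by -0.10 and -0.20, in the same order of lines. A second Mrpl11 probe set, at a mean level of 11.48, gave 0.08 (Hey1 line) and -0.16 (Hey2 line). The remaining Mrpl11 probe sets were below 0 in both lines. Mrps18b, of the small subunit, differed by -0.13 in the Hey1 line and by -0.11 in the Hey2 line.

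Members higher on doxycycline in both lines numbered 15 of 76. Mrpl24, which encodes uL24m, read 12.63 in the Hey1 line on doxycycline and 12.56 uninduced, and 12.58 in the Hey2 line on doxycycline and 12.33 uninduced. Mrpl1, of the L1 stalk, read 10.73 in the Hey1 line on doxycycline and 10.60 uninduced, and 10.48 in the Hey2 line on doxycycline and 10.38 uninduced. For Mrpl24 the doxycycline arrays were above the uninduced arrays, whereas for Mrpl1 both Hey1-line arrays lay above both Hey2-line arrays, and a second Mrpl1 probe set gave -0.14 (Hey1 line) and -0.21 (Hey2 line). Mrpl32, whose precursor is matured by a protease of the inner membrane, differed by 0.09 in the Hey1 line and by 0.10 in the Hey2 line. Mrps27, a pentatricopeptide repeat protein of the small subunit, differed by 0.09 and 0.10 in the same lines. Mrpl58, a peptidyl-tRNA hydrolase built into the large subunit, read 11.01 in the Hey1 line on doxycycline and 10.96 uninduced, and 10.96 in the Hey2 line on doxycycline and 10.89 uninduced. Of the stalk that recruits translation factors, Mrpl12 differed by 0.05 in the Hey1 line and by 0.06 in the Hey2 line, and Mrpl10 by 0.01 in each.

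Some members differed between the lines in their doxycycline difference. Mrpl9, which encodes bL9m of the large subunit, read 10.31 in the Hey1 line on doxycycline and 9.94 uninduced, and 9.96 in the Hey2 line on doxycycline and 9.98 uninduced. In this Mrpl9 probe set the Hey1 line on doxycycline was the high array and the other 3 lay together. Its other 2 probe sets gave smaller doxycycline differences in the Hey1 line, 0.07 for each. In those 2 both Hey1-line arrays lay above both Hey2-line arrays. Their Hey2 minus Hey1 differences were -0.25 and -0.27 uninduced, and -0.31 and -0.27 on doxycycline. Mrps21, which encodes bS21m of the small subunit, read 10.45 in the Hey1 line on doxycycline and 10.52 uninduced, and 10.22 in the Hey2 line on doxycycline and 10.57 uninduced. Here the Hey2 line on doxycycline was the low array, and a second Mrps21 probe set gave 0.12 in that line. Mrps36 read 10.69 in the Hey1 line on doxycycline and 10.55 uninduced, and 10.70 in the Hey2 line on doxycycline and 10.88 uninduced. Its product is now known as a component of the 2-oxoglutarate dehydrogenase complex, so it belongs to the list by symbol and not by structure. Mrps11, in the platform of the small subunit, read 9.69 in the Hey1 line on doxycycline and 9.89 uninduced, and 9.70 in the Hey2 line on doxycycline and 9.71 uninduced. A second Mrps11 probe set, at a mean level of 6.74, gave -0.15 (Hey1 line) and 0.37 (Hey2 line). Mrps30, a mitochondria-specific protein that lies in the large subunit despite its symbol, differed by -0.20 in the Hey1 line and by -0.05 in the Hey2 line. Mrpl14 differed by -0.04 in the Hey1 line and by -0.21 in the Hey2 line, and Mrpl47 and Mrpl35 by -0.15 each in the Hey1 line and by 0.03 and 0.02 in the Hey2 line. None of these differences between the lines has a replicate check.

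**Figure D3:**
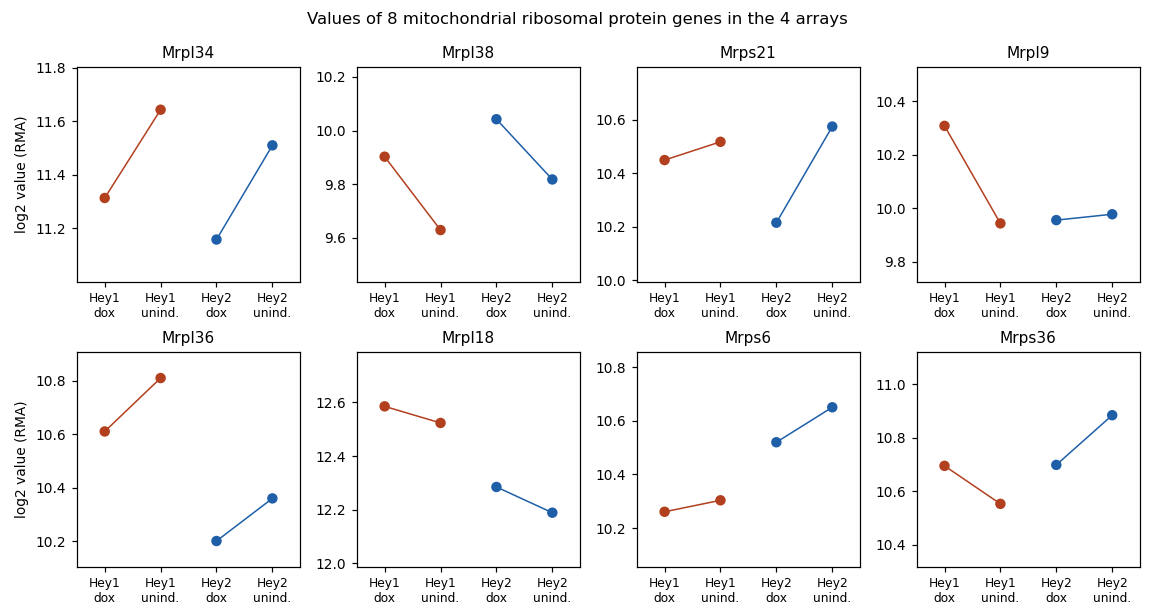
Log2 values of 8 mitochondrial ribosomal protein genes in each of the 4 arrays, each point an array and each line joining the arrays of a cell line, with no error bars because each group has 1 array. Every panel spans the same log2 range around its own centre. Mrpl34 is lower in both doxycycline arrays, and Mrpl36 is lower in both Hey2-line arrays.

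The 3 genes of the Mrps18 family, Mrps18a, Mrps18b and Mrps18c, encode related proteins, of which the Mrps18a protein lies in the large subunit. Mrps18a read 10.44 in the Hey1 line on doxycycline and 10.51 uninduced, and 10.35 in the Hey2 line on doxycycline and 10.66 uninduced. Its differences were -0.07 (Hey1 line) and -0.31 (Hey2 line). Mrps18c read 11.98 in the Hey1 line both on doxycycline and uninduced, and 11.86 in the Hey2 line on doxycycline and 11.90 uninduced. Mrps12, a protein of the decoding centre, read 11.41 in the Hey1 line on doxycycline and 11.47 uninduced, and 11.19 in the Hey2 line on doxycycline and 11.37 uninduced.

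Sorted by structural role, the groups of members gave similar medians. The 28 large-subunit genes with a bacterial counterpart had medians of -0.03 (Hey1 line) and -0.04 (Hey2 line), with 16 and 17 genes below 0. The 21 large-subunit genes specific to mitochondria, Mrps18a and Mrps30 among them, had -0.03 and -0.05, with 14 and 15 below 0. The 16 small-subunit genes with a bacterial counterpart had -0.04 and -0.06, with 13 and 14 below 0. The 10 small-subunit genes specific to mitochondria had -0.03 and -0.07, with 7 and 6 below 0. The ranges of the 4 groups overlapped. Mrps36 was placed in no subunit group.

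**Figure D4:**
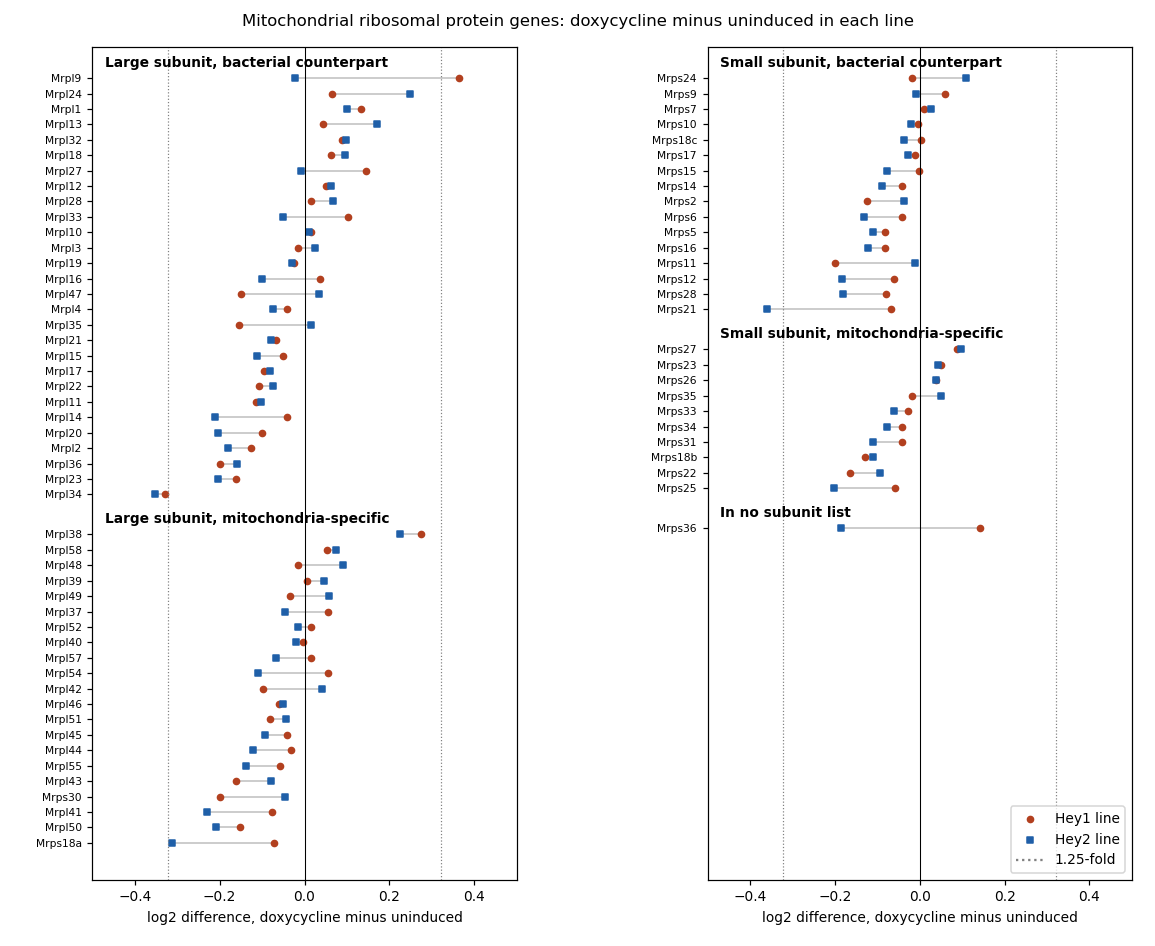
Log2 differences, doxycycline minus uninduced, of the mitochondrial ribosomal protein genes grouped by subunit and by whether the protein has a bacterial counterpart, a row for each gene with a circle for the Hey1 line and a square for the Hey2 line. Dotted lines mark 0.32 in each direction. Mrpl9, Mrpl34 and Mrps21 lie outside them and the other genes between them.

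Genes that work with the mitochondrial ribosome were compared in the same way, from lists chosen by function. The 21 assembly genes had medians of 0.04 (Hey1 line) and 0.02 (Hey2 line), with 13 above 0 in each. Among them Tfb1m, which methylates the small-subunit ribosomal RNA, differed by 0.24 in the Hey1 line and by 0.15 in the Hey2 line, and Mtg2, a GTPase of large-subunit assembly, by -0.15 and -0.30. The 13 translation factors had medians of -0.01 and -0.05, with Mtif2, the initiation factor, at 0.15 and 0.17 and Lrpprc, which binds mitochondrial messages, at -0.16 and -0.24. The 19 mitochondrial aminoacyl-tRNA synthetases had medians of 0.02 and -0.04, with Mars2, for methionine, at 0.30 and 0.25. The 11 genes of mitochondrial DNA transcription and replication had medians of -0.02 and -0.10, with Tefm, the elongation factor of that transcription, at -0.17 and -0.45. The 44 cytosolic ribosomal protein genes had medians of -0.01 and -0.02. Many of the cytosolic genes read close to 15.20, the highest value of any probe set, as Rps29 did at 14.85 in the Hey1 line on doxycycline. The part of level in their medians was not tested. Of 4 mitochondrial ribosomal subunits under other symbols, Dap3 differed by -0.20 and -0.06 and Ptcd3 by 0.09 and 0.31. In these pairs the Hey1 line is given before the Hey2 line.

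**Figure D5:**
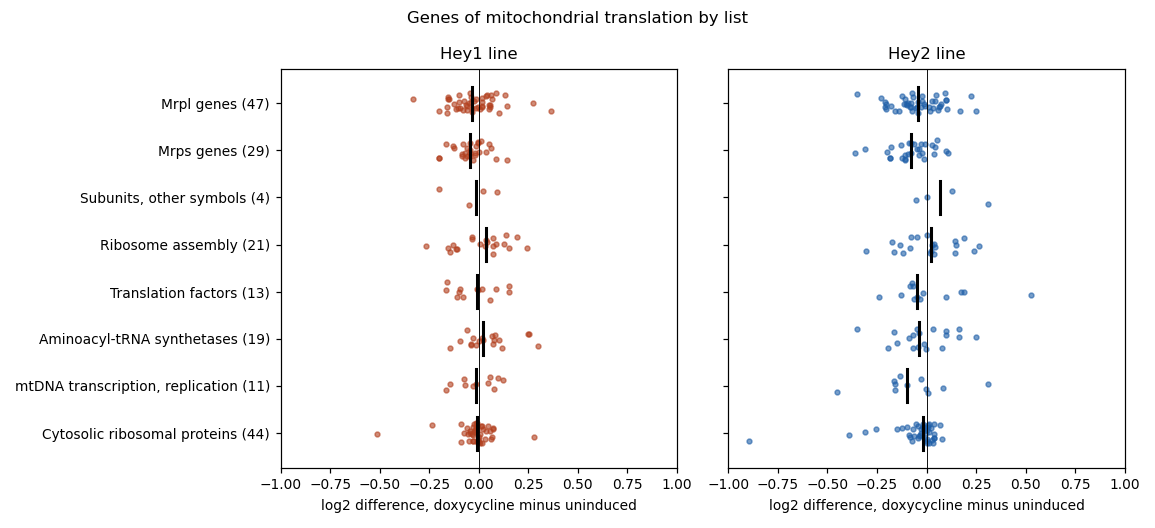
Log2 differences, doxycycline minus uninduced, of the mitochondrial ribosomal protein genes and of the lists of genes that work with them, each point a gene and each black bar a median, in the Hey1 and Hey2 lines. The medians lie between -0.10 and 0.07.

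Differences of the members between the lines were scattered more widely than their doxycycline differences, with a scaled median absolute deviation of 0.16 uninduced and 0.12 on doxycycline. The same held for all genes, at 0.29 and 0.25 against 0.16 (Hey1 line) and 0.22 (Hey2 line) for doxycycline. In the members' level range it was 0.24 and 0.23 against 0.12 and 0.15. In the uninduced arrays the members' median difference, Hey2 line minus Hey1 line, was -0.06, with a range from -0.45 to 0.35, and 49 of 76 members lay below 0, against a median of 0.03 and 46.2% below 0 over all genes. In the doxycycline arrays it was -0.08, with a range from -0.41 to 0.26 and 56 members below 0, against -0.02 and 52.7%. In the uninduced arrays 5 members reached 0.32, against 28.8% of all genes and 21% of genes in the members' level range. Mrps6 and Mrps36 were higher in the Hey2 line, as were 16% of all genes, and Mrpl36, Mrps24 and Mrpl18 lower, as were 12.9%. In the doxycycline arrays 4 did, against 23.5% of all genes and 19.8% in that level range. All 4, Mrpl36, Mrpl33, Mrpl9 and Mrpl52, were lower in the Hey2 line, as were 11% of all genes, and 0 members were higher, against 12.6%. None of the 76 reached 2-fold, where 1.96% of all genes did uninduced and 1.61% on doxycycline. In the members' level range 53% of genes lay below 0 uninduced and 51.6% on doxycycline. Both Hey2-line arrays lay below both Hey1-line arrays for 35 members (46.1%), against 26.6% of all genes and 33.7% of genes in the members' level range. They lay above them for 10 (13.2%), against 27.4% and 29.9%. The uninduced and doxycycline comparisons share no array, and 59 members had the same sign in both, 44 of them below 0, where 71.4% of all genes had the same sign and 35.2% lay below 0 in both. In the members' level range 80.2% had the same sign, and 42.5% lay below 0 in both. The embryonic stem cell markers were also lower in the Hey2 line, with medians of 12.92 and 12.82 in the Hey2 line against 13.16 and 13.08 in the Hey1 line (doxycycline, then uninduced). Of the fibroblast markers the highest read 5.89 and 6.27 (Hey2 line) against 7.80 and 7.13 (Hey1 line), and their medians were 5.03 and 5.04 (Hey2 line) against 5.25 and 5.08 (Hey1 line), in the same order. The highest cardiomyocyte marker read 7.28 and 7.76 (Hey2 line) against 8.48 and 8.50 (Hey1 line), with medians of 5.63 and 5.64 against 5.86 and 5.90. Medians of the endoderm markers were higher in the Hey2 line, 5.45 and 5.48 against 5.25 and 5.32. So were those of the neuroectoderm markers, 6.58 and 6.73 against 6.55 and 6.61. The highest endoderm marker read 6.01 and 6.23 against 6.19 and 6.21, and the highest neuroectoderm marker 7.23 and 7.68 against 7.56 and 8.14. The 3′ minus 5′ gaps given above were lower in the Hey2 line for Gapdh and Actb in both comparisons. For Tfrc and Pcx they were higher in the Hey2 line on doxycycline and lower uninduced. The part of any of these in the members' line differences was not tested.

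In the limma fit the line effect, Hey2 minus Hey1, passed an adjusted p of 0.05 for 0 of 76 members, against 0.918% of all genes, with a lowest adjusted p of 0.0767 for Mrpl36. At an unadjusted p of 0.05 it called 13 members, against 28.3% of all genes, 2 higher and 11 lower in the Hey2 line, where 15.2% of all genes were higher and 13.1% lower. Mrpl36 read 10.20 (Hey2 line) against 10.61 (Hey1 line) on doxycycline, and 10.36 (Hey2 line) against 10.81 (Hey1 line) uninduced. Its line effect was -0.43 ± 0.08 (SE), and its adjusted p in limma was 0.000751 to 0.121 under the alternatives, the lowest with that same prior. Both Hey2-line arrays lay below both Hey1-line arrays.

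Mrpl52, specific to mitochondria, read 12.13 (Hey2 line) against 12.47 (Hey1 line) on doxycycline, and 12.14 (Hey2 line) against 12.46 (Hey1 line) uninduced. Mrpl18, which encodes uL18m, read 12.28 (Hey2 line) against 12.59 (Hey1 line) on doxycycline, and 12.19 (Hey2 line) against 12.52 (Hey1 line) uninduced. Mrps24, of the small subunit, read 11.66 (Hey2 line) against 11.89 (Hey1 line) on doxycycline, and 11.55 (Hey2 line) against 11.91 (Hey1 line) uninduced. For all 3 the Hey2-line arrays were the low ones with and without doxycycline, and their adjusted p in limma was 0.103 for Mrpl52, with a probe set at a mean level of 6.12 that gave 0.11 on doxycycline and -0.05 uninduced, 0.107 for Mrpl18 and 0.135 for Mrps24. Mrpl44, which has the fold of a double-stranded RNA nuclease, read 10.61 (Hey2 line) against 10.93 (Hey1 line) on doxycycline, and 10.74 and 10.97 in the same lines uninduced. Mrpl33, of the large subunit, read 11.07 (Hey2 line) against 11.43 (Hey1 line) on doxycycline, and 11.12 and 11.33 in the same lines uninduced.

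Members higher in the Hey2 line were fewer. Mrps6, which encodes bS6m of the small subunit's platform, read 10.52 (Hey2 line) against 10.26 (Hey1 line) on doxycycline, and 10.65 (Hey2 line) against 10.30 (Hey1 line) uninduced. Its line effect was 0.30, with an adjusted p of 0.118 in limma, and a second Mrps6 probe set gave 0.27 uninduced and 0.25 on doxycycline. Mrpl57, specific to mitochondria, read 11.81 (Hey2 line) against 11.61 (Hey1 line) on doxycycline, and 11.88 and 11.60 in the same lines uninduced. Its line effect had an adjusted p of 0.166 in limma, 0.0128 to 0.944 under the alternatives. A second Mrpl57 probe set, at a mean level of 6.58, gave -0.06 on doxycycline and -0.38 uninduced (Hey2 minus Hey1). Mrps34, also specific to mitochondria, read 11.38 (Hey2 line) against 11.18 (Hey1 line) on doxycycline, and 11.45 and 11.22 in the same lines uninduced. For Mrps6, Mrpl57 and Mrps34 both Hey2-line arrays lay above both Hey1-line arrays.

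Gene length was set beside the differences because member genes are short, with a median of 7.69 kb against 22.2 kb over all genes compared. The 2498 compared genes no longer than the median member had medians of -0.02 (Hey1 line) and -0.07 (Hey2 line), and 56.8% and 64.3% of them lay below 0. The members' medians, -0.04 and -0.05, lay close to these. Between the lines, Hey2 minus Hey1, the short genes had medians of 0.02 uninduced and -0.05 on doxycycline. Of the short genes, 45.4% and 58.6% lay below 0 in these comparisons. The members had medians of -0.06 and -0.08 there, and 64.5% and 73.7% of them lay below 0. The part of gene length in the members' differences was not tested.

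Medians were also set beside the promoter matches. Median doxycycline differences of the 15 members with the NRF1 motif were 0.01 (Hey1 line) and -0.07 (Hey2 line), against -0.04 and -0.05 for the 52 without it. For the 12 with the ETS motif they were 0.01 and -0.01, against -0.04 and -0.08 for the 55 without it. The 8 with the YY1 motif had -0.08 and 0.00, against -0.03 and -0.06 for the 59 without it. The 13 with the SP1 motif had -0.04 and -0.11, against -0.04 and -0.05 for the 54 without it. Median line differences, Hey2 minus Hey1, were -0.04 on doxycycline and -0.00 uninduced with the NRF1 motif, against -0.09 and -0.08 without it. With the ETS motif they were -0.16 and -0.16, against -0.08 and -0.05 without it. With the YY1 motif they were -0.08 and -0.20, against -0.09 and -0.07, and with the SP1 motif -0.03 and 0.03, against -0.09 and -0.08. None of these medians has a test.

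Many member genes start close to a neighbour that runs the other way. A protein-coding gene started head to head within 1000 bases of 26 of 67 members (38.8%), against 15.4% of 9488 compared genes. Mrps11 and Mrpl46, both members, start 42 bases apart, and the windows printed for them share 41 bases. Mrpl46 differed by -0.06 in the Hey1 line and by -0.05 in the Hey2 line, and Mrps11 by -0.20 and -0.01. Mrpl34 lies head to head with Abhd8, which differed by -0.51 in the Hey1 line and by 0.27 in the Hey2 line, beside -0.33 and -0.35 for Mrpl34. Mrps12 lies head to head with Sars2, the mitochondrial seryl-tRNA synthetase, which differed by 0.25 and 0.08 beside -0.06 and -0.18 for Mrps12. Of 23 pairs with both genes compared, 12 agreed in sign for the Hey1 line and 13 for the Hey2 line. For the Hey2 minus Hey1 differences 16 agreed uninduced and 11 on doxycycline. The share that agrees among head-to-head pairs of all genes compared was not computed, so these counts have no background.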

How the data were processed

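Total RNA was hybridised to single-colour Affymetrix arrays. The authors deposited log2 values, 1 for each probe set, computed with RMA per the submitters' processing notes. The sources used here do not give its version, the chip description or a genome build. RMA corrects the background, normalises by quantiles and summarises probes, so the 4 arrays have the same distribution of values. The number of arrays limits the precision.

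Groups were read from the sample titles. Genes were named through the platform annotation, and probe sets with several symbols or none were left out. Each gene was represented by its probe set with the highest mean, and compared where the highest of its 4 values reached 6.05. Differences are doxycycline minus uninduced within a line and Hey2 line minus Hey1 line at matched treatment. limma 3.58.1 in R 4.3.3 (all 4 arrays, lmFit, eBayes, Benjamini-Hochberg adjustment at 0.05) fitted line and doxycycline to all genes compared, and was tested on simulated data. Python 3.11.15 with numpy 2.4.6, pandas 2.3.3 and matplotlib 3.10.9 did the rest.

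The members and gene lists were chosen with earlier results of these data known. Members were named where they had the largest differences shared by both lines, between the lines, or opposed between the lines, where their probe sets disagreed, or as stalk, Mrps18 family, decoding centre or Mrps36 genes; of the other lists, the 3 members per direction with the largest difference shared by both lines were eligible. The genes of the level-range and short-gene comparisons, the promoter motifs, and any other gene named were chosen after the values were seen. Alternatives covered the level filter, normalisation, an offset, the handling of probe sets, the limma prior and the uninduced array used.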

Additional observations from a re-analysis of the deposited data

Results flagged for a closer look

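The 2 lines moved in opposite directions on doxycycline for 12 of the members named here. Some of the 12 were named because their doxycycline differences differed most between the lines. Over all 76 members, 19 did not have the same sign in both lines, against 4401 of the 12098 genes compared. In the members' level range 1426 of 4234 genes did not. The difference between the lines was not tested for any of the 12, since each group has 1 array. The values are the Hey2-line difference minus the Hey1-line difference, on the log2 scale. The gap was -0.39 for Mrpl9, -0.33 for Mrps36, -0.15 for Mrpl33 and -0.15 for Mrpl27. It was 0.18 for Mrpl47, 0.17 for Mrpl35 and 0.13 for Mrps24. It was smaller for Mrpl57 at -0.08, Mrps9 at -0.07, Mrps18c at -0.04, Mrpl3 at 0.04 and Mrpl52 at -0.03, where at least 1 line lay close to 0. The Hey2 line also lay close to 0 for Mrpl9 (-0.02), Mrpl27 (-0.01), Mrpl47 (0.03) and Mrpl35 (0.02), and the Hey1 line for Mrps24 (-0.02). For Mrpl9, Mrpl27, Mrps24 and Mrpl52 every other probe set above the filter lay above 0 in both lines. Such probe sets of Mrpl3, Mrpl35, Mrpl57 and Mrps9 did not all do so.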

How the results depend on the processing

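The labels carry no replicate numbers, so arrays could be paired only by line. The limma fit does this, since it has line as a term and so compares arrays within a line. Each group has 1 array, which leaves no replicate to leave out. Of 1118 values of single members under the alternatives, 1072 moved by less than the scaled median absolute deviation of all genes in that comparison (0.16 to 0.29) and 46 by more. Values of 0.32 or more changed sign in 0 cases and smaller ones in 56, 30 with the other line's uninduced array and 24 with the mean of the probe sets. Otherwise the medians ran from -0.04 to -0.02 (Hey1 line), -0.06 to -0.05 (Hey2 line), -0.12 to -0.07 (lines on doxycycline) and -0.08 to -0.05 (lines uninduced), but with the Hey2 line's uninduced array as its comparison the Hey1 line's median became 0.02, and with the Hey1 line's uninduced array the Hey2 line's became -0.12. Members at 0.32 or more in the Hey1 line, 2 as reported, were 1 after centring (10.2% of all genes), 0 with the mean of the probe sets (7.49%), 6 of 140 with every probe set (10.4%) and 8 with the other line's uninduced array (34.2%). In the Hey2 line, 2 as reported, they were 1 with the mean of the probe sets (17.2%), 15 with every probe set (22.4%) and 6 with the other line's uninduced array (24.7%). Every probe set gave 26 between the doxycycline arrays (24.3%) and 20 between the uninduced arrays (29.8%). Members past an adjusted p of 0.05 in limma, 0 as reported, were 1 for doxycycline (Mrpl34) with a trended robust prior (3.58% of all genes were called), and for line 19 with that prior (24.2%), 8 with the 75th percentile filter (25.3%) and 1 (Mrpl36) with an offset of 32 (9.32%). Over all genes the line effect was called for 111 genes as reported, 2933 with the trended robust prior, 1864 with the 75th percentile filter, and 0 after centring or with every probe set. Past an unadjusted p of 0.05, the 2 members for doxycycline became 8 of 140 with every probe set (11.9%), 5 with the 75th percentile filter (18%), 1 with the mean of the probe sets (13.2%), 1 without a filter (10.6%) and 11 with the trended robust prior (17.2%). The 13 for line became 27 of 140 with every probe set (26.2%) and 28 with that prior (35.5%). The cause was not tested.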

Other observations

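Among genes that work with the mitochondrial ribosome, some line differences lay outside the members' range of -0.45 to 0.35. That range covers only the probe set that stood for each member, and other member probe sets above the filter also lay outside it. A second Mrpl1 probe set, at a mean level of 8.78, gave -0.89 on doxycycline and -0.82 uninduced (Hey2 minus Hey1). The other Mrpl38 probe sets went opposite ways, at -0.51 and -0.57 for the first and 0.22 and 0.49 for the second, in the same order. Tfb1m, the small-subunit ribosomal RNA methyltransferase, was lower in the Hey2 line, at -0.60 on doxycycline and -0.50 uninduced (Hey2 minus Hey1), with an adjusted p of 0.0613 for line in limma. The 21 assembly genes had a median line difference of -0.09 on doxycycline and -0.12 uninduced. Polg, the mitochondrial DNA polymerase, was higher in the Hey2 line, at 0.56 on doxycycline and 0.45 uninduced, with an adjusted p of 0.0672 for line in limma. Rpl14, a cytosolic ribosomal protein gene, differed by -0.82 on doxycycline and -0.58 uninduced, with an adjusted p of 0.0578. Rpl39l, a cytosolic ribosomal protein gene related to Rpl39, differed by -1.16 on doxycycline and -1.28 uninduced, with an adjusted p of 0.0439 for line in limma over all 4 arrays; after centring, 0 genes passed. Rpl27a had doxycycline differences of -0.23 (Hey1 line) and -0.90 (Hey2 line).

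Probe sets of the same member did not always move together. In the Hey2 line, doxycycline minus uninduced, the probe sets above the filter ran from -0.21 to 0.56 for Mrpl3 and from -0.04 to 0.51 for Mrpl13. They ran from -0.39 to 0.07 for Mrpl28 and from -0.02 to 0.53 for Mrpl35. The high ends for Mrpl3, Mrpl13 and Mrpl35 came from probe sets at mean levels of 5.98, 5.87 and 6.08, near the filter of 6.05. That of Mrpl3 reached the filter only in the Hey2 line on doxycycline, the array that gives its 0.56. That of Mrpl13 reached it only in the Hey1 line on doxycycline. These high ends therefore say little about disagreement between probe sets. In the Hey1 line the probe sets above the filter ran from -0.30 to 0.08 for Mrpl15, from -0.11 to 0.32 for Mrps23 and from -0.30 to 0.21 for Mrps25. The high end for Mrps23 and the low end for Mrps25 came from probe sets at mean levels of 6.82 and 6.31. Mrpl13 probe sets at mean levels of 11.36 and 9.75 gave 0.43 and 0.44 in the Hey1 line. The probe set that stood for Mrpl13 gave 0.04 there. The probe set that stood for each gene is the brightest of these.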
